A study of Mus musculus with 6 samples.

Results

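The 9 genes described here encode transcription factors that establish or maintain the identity of microglia, the resident macrophages of the brain: Spi1, Irf8, Sall1, Mef2a, Mef2c, Mef2d, Runx1, Maf and Cebpa. They were taken by symbol from a table of 24956 genes, and all 9 were found and passed the filter on low counts. Bulk RNA came from microglia isolated by fluorescence-activated sorting of 3xTg-AD brains, a mouse line whose alleles include human APP and tau transgenes driven in neurons, at 7 months of age. The anti-NK1.1 group had 3 libraries from mice given 25 µg of an antibody that depletes natural killer (NK) cells every 4 days for 4 weeks, and the isotype group had 3 libraries from mice given an isotype control antibody on the same schedule. All mice thus carried the same alleles and received an antibody. Whether a library came from 1 animal or a pool is not given in the labels, so p-values measure the spread between these libraries.

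PU.1, the ETS-family protein encoded by Spi1, binds enhancers throughout the macrophage lineage, and IRF8 joins it on composite sites. RUNX1 and C/EBPα act with PU.1 in myeloid progenitors, MAF is a basic leucine zipper factor of mature tissue macrophages, and MEF2 proteins, which share a MADS-box DNA-binding domain, occupy microglial enhancers together with PU.1. SALL1, a zinc finger factor induced by TGF-beta signalling, is found among brain macrophages mainly in microglia and is needed to keep them in their resting state.

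Libraries held 26893620 to 31353937 gene counts in the anti-NK1.1 group and 31884697 to 36098252 in the isotype group. The 8 defining microglia markers summed to 25020 to 30580 CPM (counts scaled to library size with TMM factors) under anti-NK1.1 and 27610 to 29700 CPM under isotype antibody, and all 8 had counts in every library. Libraries anti-NK1.1 1 and 3 stood apart from anti-NK1.1 2 in the kinds of transcript they held. Across 14391 tested genes, the rank correlation of a gene's deviation from its own mean with the length of its longest transcript was -0.15, 0.26 and -0.31 in anti-NK1.1 1 to 3, against -0.01, 0.03 and 0.33 in isotype 1 to 3. With transcript GC content it was 0.26, -0.14 and 0.25 in anti-NK1.1 1 to 3, against -0.24, -0.06 and -0.19 in isotype 1 to 3. Long and AT-rich transcripts thus tended to be low in anti-NK1.1 1 and 3, and the members' results are given with and without those libraries. The 14 neutrophil markers, each with counts in every library, summed to 33070, 33820 and 142800 CPM in anti-NK1.1 1 to 3, against 103100, 81520 and 75900 CPM in isotype 1 to 3.

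Promoter windows from RefSeq (GRCm38.p6, 250 bases before to 50 after a transcript start) were on hand for 7 of the 9 genes, as 13 windows with alternative starts counted. Shown are a window of Mef2a and a window of Mef2c, the pair whose levels moved most alike across libraries, since each holds the PU.1-type letters GAGGAAG. A window of Runx1 is added because it holds the RUNX letters TGTGGT on the opposite strand, in a gene whose protein binds such sites. Capitals mark these matches and, in Mef2a, a MEF2-type match to TATTTTTA on the opposite strand.
Mef2a, chr7:67372809-67373108, minus strand: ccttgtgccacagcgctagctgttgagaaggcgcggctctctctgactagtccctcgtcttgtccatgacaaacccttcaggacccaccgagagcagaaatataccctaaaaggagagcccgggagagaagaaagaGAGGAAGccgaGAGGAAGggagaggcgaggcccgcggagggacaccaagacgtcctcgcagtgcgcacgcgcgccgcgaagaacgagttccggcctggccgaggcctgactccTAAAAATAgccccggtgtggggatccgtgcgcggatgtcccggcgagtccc
Mef2c, chr13:83523406-83523705, plus strand: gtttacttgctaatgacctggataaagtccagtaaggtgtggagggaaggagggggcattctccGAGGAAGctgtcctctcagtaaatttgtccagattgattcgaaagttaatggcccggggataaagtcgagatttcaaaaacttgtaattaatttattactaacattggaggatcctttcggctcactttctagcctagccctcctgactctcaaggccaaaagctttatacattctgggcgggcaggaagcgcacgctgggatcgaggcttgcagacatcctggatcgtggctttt
Runx1, chr16:92826025-92826324, minus strand: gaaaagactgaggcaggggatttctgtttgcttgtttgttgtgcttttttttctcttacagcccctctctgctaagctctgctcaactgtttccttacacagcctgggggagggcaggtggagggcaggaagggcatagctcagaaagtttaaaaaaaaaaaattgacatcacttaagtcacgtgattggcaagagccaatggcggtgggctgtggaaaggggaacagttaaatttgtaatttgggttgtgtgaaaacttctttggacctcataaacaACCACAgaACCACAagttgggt

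The letters GAGGAAG stood on either strand in 2 of the 13 windows, against 13.6% of all 32851 windows. TGTGGT stood in 1 of 13 (16.8% of all windows), and TATTTTTA in 1 of 13 (2.72% of all). The C/EBP-type letters TTGCNNAA (10.8% of all windows) and the composite ETS and IRF element (2.72%) were in none of the 13, which says only that these letters are not in these windows. The printed Mef2a window had a GC content of 62.3%, and the printed Mef2c window 47.0%.

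None of the 9 factors passed the test between the antibodies. edgeR's quasi-likelihood test called 0 members at an adjusted p under 0.05, where it called 0% of 14520 tested genes in either direction, and 1 member, Cebpa, had an unadjusted p under 0.05, being higher (6.54% of tested genes did in either direction and 2.74% as higher). DESeq2 also called 0 members (0.331% of tested genes as higher and 0.241% as lower), with 3 at an unadjusted p under 0.05 (9.22% of tested genes in either direction). Of the 9 genes, 4 had a log2 change above 0 and 5 below, with a median of -0.18, while 50.9% of tested genes lay above 0 and 49.1% below, with a median of 0.01. The members above 0 were Spi1, Irf8, Cebpa and Mef2d. Of these, Spi1 and Irf8 were below every isotype library in anti-NK1.1 2, and Mef2d was in anti-NK1.1 3. The other members, Mef2a, Mef2c, Sall1, Runx1 and Maf, were low in anti-NK1.1 1 and 3 but not in anti-NK1.1 2. In bulk samples, fewer cells of a type and less RNA per cell cannot be told apart.

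Spi1 (chromosome 2, 91082390 to 91115756 on GRCm38, 5 exons) was the most abundant of the 9 per unit of transcript length. It had 656.5, 421 and 900 CPM in anti-NK1.1 libraries 1 to 3, against 544, 581 and 579 CPM in isotype libraries 1 to 3. The isotype libraries lay close together and the anti-NK1.1 libraries spread on either side of them, 1 and 3 above and 2 below. Mean levels were 659 ± 240 CPM under anti-NK1.1 and 568 ± 20.8 CPM under isotype antibody (SD, n = 3 each). The log2 change was 0.22 ± 0.27 (SE), with an edgeR adjusted p of 0.857. Without anti-NK1.1 1 and 3 the log2 change was -0.42, and without anti-NK1.1 3 it was -0.08. The neutrophil marker sum was also highest in anti-NK1.1 3, at 142800 CPM. In anti-NK1.1 1, where Spi1 was above the isotype range, that sum was below it, at 33070 CPM. The part of neutrophils in the level of Spi1 was not tested.

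Irf8 (chromosome 8, 120736358 to 120756694), the interferon regulatory factor that partners PU.1, had 552, 366 and 468 CPM in anti-NK1.1 libraries 1 to 3, against 387, 463 and 489 CPM in isotype libraries. The groups overlapped, and again anti-NK1.1 2 was the lowest library. Its log2 change was 0.05 ± 0.22 (edgeR adjusted p = 0.964), and -0.28 without anti-NK1.1 1 and 3. Counting error was small beside this spread, since every library had at least 11731 counts of Irf8.

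Cebpa (chromosome 7, 35119293 to 35121928), a single-exon gene for the basic leucine zipper factor that starts myeloid differentiation, was the member with groups that did not overlap. It had 92.1, 76.0 and 105 CPM in anti-NK1.1 libraries 1 to 3, against 40.5, 63.3 and 65.2 CPM in isotype libraries 1 to 3. All 3 anti-NK1.1 libraries were above all 3 isotype libraries, as for 7.73% of tested genes in this direction, and isotype 1 was the lowest. Mean levels were 91.0 ± 14.5 CPM under anti-NK1.1 and 56.4 ± 13.8 CPM under isotype antibody (SD, n = 3 each). The fit gave a 1.61-fold higher level, a log2 change of 0.69 ± 0.27, with an edgeR adjusted p = 0.727. An exact permutation test of 3 against 3 cannot go below p = 0.1. Without anti-NK1.1 1 and 3 the log2 change was 0.44, and after per-library correction for transcript length and GC content it was 0.19. Cebpa has the most GC-rich transcript of the 9, at 62.6%. Neutrophils and monocytes also express Cebpa, and the 10 monocyte markers summed to 1746, 2128 and 6206 CPM in anti-NK1.1 1 to 3, against 5224, 4774 and 4743 CPM in isotype 1 to 3. Chil3, the largest part of that sum, had 867, 1236 and 4085 CPM in anti-NK1.1 1 to 3, against 3345, 3045 and 2979 CPM in isotype 1 to 3. Markers did not all follow the sums: 3 of the 10 monocyte markers (Ccr2, Fn1 and F13a1) and 3 of the 14 neutrophil markers (Cxcr2, Mpo and Csf3r) were below every isotype library in all 3 anti-NK1.1 libraries. Of all tested genes 7.59% were. The part of these cells in the level of Cebpa was not tested.

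**Figure D1:**
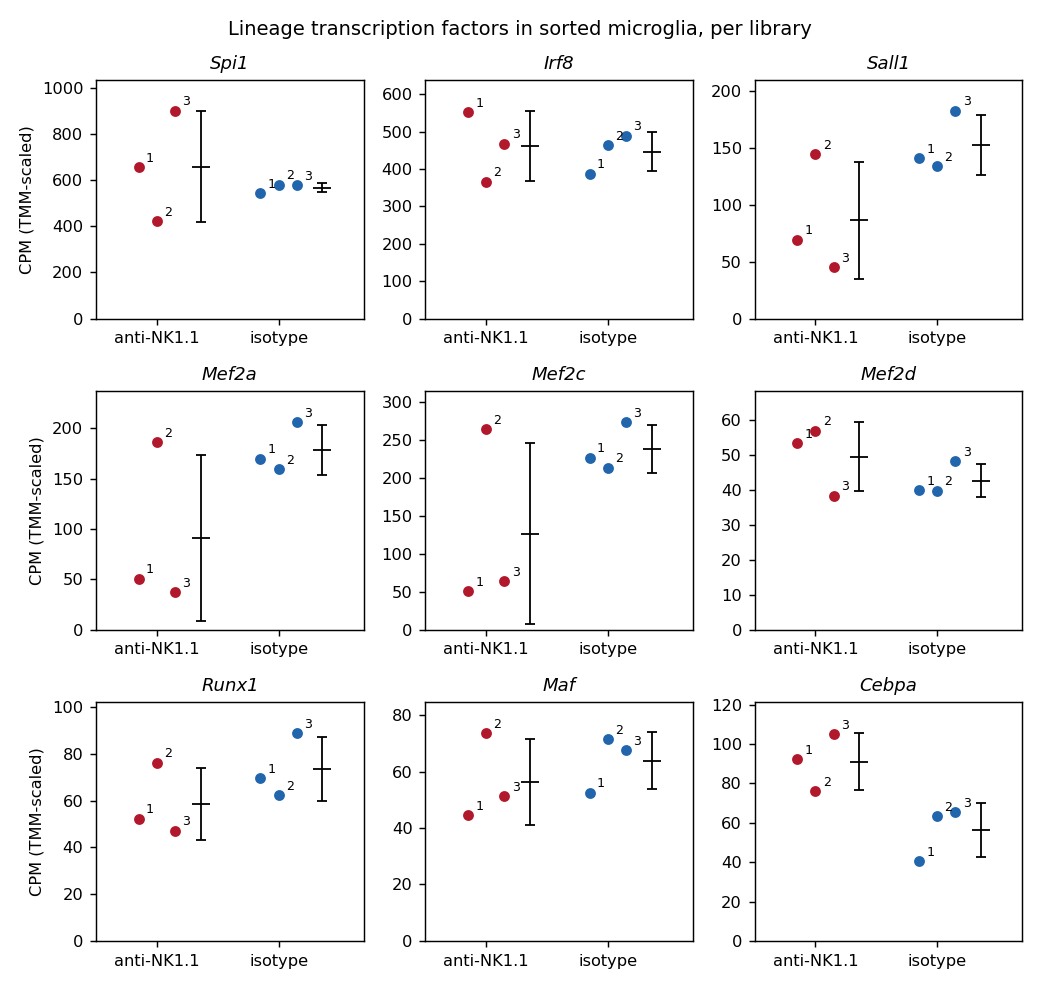
CPM of the 9 factors in each library (points, numbered by replicate), with anti-NK1.1 left and isotype right; the black mark and bar are the mean and SD of 3 libraries. Mef2a, Mef2c and Sall1 are low in anti-NK1.1 1 and 3 and within the isotype range in anti-NK1.1 2, while all 3 anti-NK1.1 libraries of Cebpa lie above the isotype libraries.

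The 3 MEF2 genes with counts did not share a pattern. Mef2c (chromosome 13, 83504034 to 83667080), the family member tied most closely to microglial restraint of inflammation, had 51.2, 265 and 64.3 CPM in anti-NK1.1 libraries 1 to 3, against 227, 214 and 274 CPM in isotype libraries 1 to 3. Mef2a (chromosome 7, 67231163 to 67372858), a paralog that binds the same AT-rich element, had 50.5, 186 and 37.5 CPM in anti-NK1.1 libraries, against 170, 160 and 206 CPM in isotype libraries. For both genes anti-NK1.1 1 and 3 lay far below every isotype library and anti-NK1.1 2 lay within the isotype range.

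In anti-NK1.1 1 to 3, Mef2c stood at 21.5%, 111% and 27.0% of the isotype mean and Mef2a at 28.3%, 104% and 21.0%. The log2 changes were -0.91 ± 0.54 for Mef2c (edgeR adjusted p = 0.745) and -0.97 ± 0.52 for Mef2a (edgeR adjusted p = 0.743), with coefficients of variation of 94.4% and 90.1% in the anti-NK1.1 group, against 13.3% and 13.8% in the isotype group. The result turned on which libraries were kept. Without anti-NK1.1 2, edgeR called both genes as lower, at log2 changes of -2.05 for Mef2c and -2.02 for Mef2a (adjusted p = 0.0405 for each), among 117 genes called lower, 0.781% of those tested (0.0801% were called higher). With the length and GC correction of that same fit, the log2 changes were -1.22 for Mef2c and -1.23 for Mef2a, and neither was called (edgeR adjusted p = 0.119 and 0.119). Without anti-NK1.1 1 and 3 the log2 changes were 0.16 and 0.07.

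Mef2d (chromosome 3, 88142372 to 88172086), a further paralog that binds the same element, had 53.4, 57.0 and 38.4 CPM in anti-NK1.1 libraries 1 to 3, against 40.0, 39.9 and 48.3 CPM in isotype libraries 1 to 3. Its groups overlapped, with anti-NK1.1 3 the lowest library of all and anti-NK1.1 2 the highest. The log2 change was 0.21 ± 0.27 (edgeR adjusted p = 0.857). It was 0.42 without anti-NK1.1 1 and 3 and 0.10 without anti-NK1.1 2. Mef2b, the remaining paralog, was at 0 in every library.

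Levels of different genes were compared as TPM, which are counts divided by transcript length and scaled to the same total in each library. In TPM the ratio of Mef2c to Mef2d was 0.825, 3.99 and 1.44 in anti-NK1.1 libraries 1 to 3, against 4.89, 4.62 and 4.88 in isotype libraries 1 to 3. That of Mef2a to Mef2d was 0.923, 3.19 and 0.952 in anti-NK1.1 libraries, against 4.14, 3.91 and 4.16 in isotype libraries. The isotype libraries agreed closely in both ratios and every anti-NK1.1 library lay below them. Mef2a to Mef2c stayed between 0.66 and 1.12 in anti-NK1.1 libraries, against 0.845 to 0.853 in isotype libraries. A ratio does not say which paralog differed. How many other gene pairs separate in this way was not counted. Transcripts of Mef2a and Mef2c have 42.0% and 40.8% GC, against 55.0% for Mef2d, and the libraries differed in the GC trends given above. The part of those trends in the ratios was not tested.

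**Figure D2:**
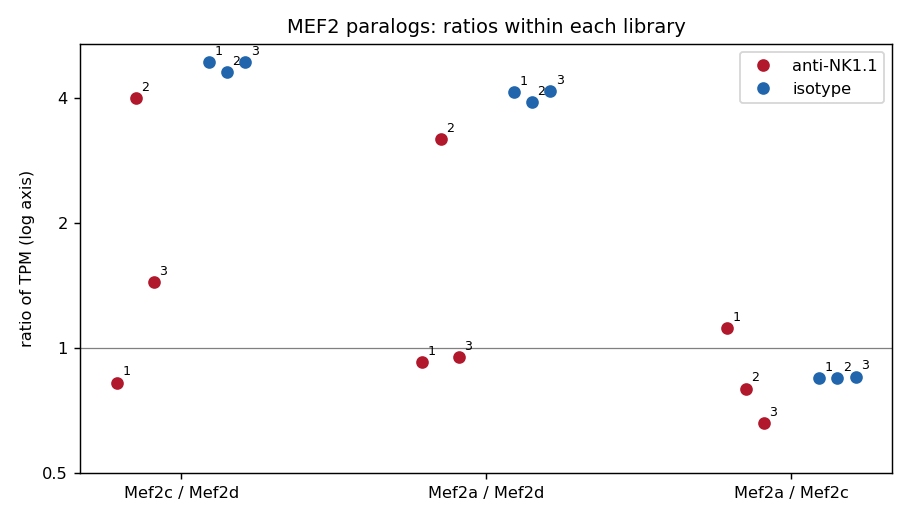
Ratios of TPM between MEF2 paralogs in each library, on a log axis, with anti-NK1.1 left of isotype and points numbered by replicate. Ratios to Mef2d lie near 1 in anti-NK1.1 1 and 3 and between 3 and 5 in anti-NK1.1 2 and all isotype libraries, while Mef2a to Mef2c stays within 0.66 to 1.12.

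Sall1 (chromosome 8, 89027235 to 89044162), the factor most particular to microglia among brain myeloid cells, had 69.5, 145 and 45.2 CPM in anti-NK1.1 libraries 1 to 3, against 141, 134 and 183 CPM in isotype libraries 1 to 3. Libraries anti-NK1.1 1 and 3 were below every isotype library, at 45.5% and 29.6% of the isotype mean, and anti-NK1.1 2 was within the isotype range at 94.6%. The log2 change was -0.82 ± 0.39 (edgeR adjusted p = 0.743). Leaving out anti-NK1.1 2 made it -1.42 (edgeR adjusted p = 0.0625), and leaving out anti-NK1.1 1 and 3 made it -0.08. Of the 8 defining microglia markers, 4 were likewise below every isotype library in anti-NK1.1 1 and 3. Among these, Cx3cr1 stood at 43.0%, 119% and 47.8% of the isotype mean in anti-NK1.1 1 to 3, P2ry12 at 55.3%, 89.9% and 55.1%, Gpr34 at 79.1%, 96.4% and 72.9%, and Siglech at 91.6%, 108% and 79.9%. Tmem119, another of the 8, stood at 147%, 115.5% and 129%. Their part in the level of Sall1 was not tested. The level of Sall1 relative to Spi1, in TPM, was 0.0409, 0.133 and 0.0194 in anti-NK1.1 libraries, against 0.100, 0.0894 and 0.122 in isotype libraries.

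Runx1 (chromosome 16, 92601466 to 92826149), the core-binding factor of blood and microglial progenitors, had 52.3, 76.2 and 47.1 CPM in anti-NK1.1 libraries 1 to 3, against 69.7, 62.3 and 88.9 CPM in isotype libraries 1 to 3. Maf (chromosome 8, 115682942 to 115707794), which encodes the leucine zipper factor c-MAF, had 44.5, 73.7 and 51.2 CPM in anti-NK1.1 libraries, against 52.5, 71.5 and 67.6 CPM in isotype libraries. Both were lower in anti-NK1.1 1 and 3 than in anti-NK1.1 2, as Mef2a and Mef2c were, but by less. Libraries anti-NK1.1 1 and 3 lay below the isotype range, and anti-NK1.1 2 lay within it for Runx1 and above it for Maf. The log2 changes were -0.33 ± 0.28 for Runx1 and -0.18 ± 0.28 for Maf (edgeR adjusted p = 0.788 and 0.885), and 0.06 and 0.21 without anti-NK1.1 1 and 3. Without anti-NK1.1 2 they were -0.57 for Runx1 and -0.42 for Maf, and without anti-NK1.1 1 the change of Maf was -0.03. Beside Maf, which border macrophages of the meninges and vessels also express, the 11 border macrophage markers summed to 217 to 316 CPM under anti-NK1.1 and 94.9 to 142 CPM under isotype antibody. Their part in the result was not tested.

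In all, 5 of the 9 factors (Sall1, Mef2a, Mef2c, Runx1 and Maf) had anti-NK1.1 1 and 3 both below every isotype library, against 20.3% of tested genes. All 5 also had anti-NK1.1 2 within or above the isotype range, against 12.7% of tested genes. Their longest transcripts measured 5265 to 6360 nt with a GC content of 40.8% to 51.6%. Spi1, Irf8 and Cebpa had transcripts of 2034 to 2847 nt with 55.1% to 62.6% GC, and Mef2d combined 5401 nt with 55.0% GC. Over the 9 genes the log2 change had a Spearman rho of 0.92 with transcript GC content and -0.65 with transcript length, as a description of 9 genes measured in the same libraries. Over 14391 tested genes the values were 0.29 and -0.22.

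**Figure D3:**
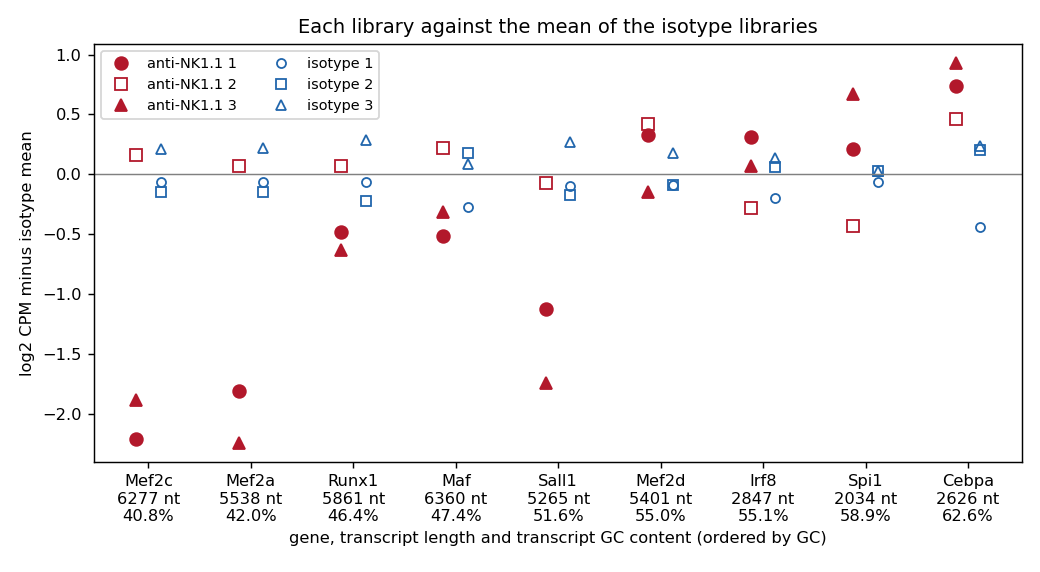
Log2 CPM of each library minus the isotype mean for the 9 factors, ordered by transcript GC content from 40.8% to 62.6%; red marks left are anti-NK1.1 libraries and blue marks right are isotype libraries. Anti-NK1.1 1 and 3 fall to about -2 for Mef2c and Mef2a and stand above 0 for Spi1 and Cebpa, while anti-NK1.1 2 stays within 0.5 of the isotype mean throughout.

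The members stood at different distances from the median of their own length and GC class. Class medians were taken on log2 CPM and member percentages on CPM, and the spread of genes within a class was not computed. For 997 tested genes with transcripts of 5000 nt or more and under 45% GC, the class of Mef2a and Mef2c, the median gene stood at 63.2%, 111% and 56.6% of the isotype mean in anti-NK1.1 1 to 3. Mef2a and Mef2c, at 21.0% to 28.3% in libraries 1 and 3, were thus lower than the median of their class. For 879 genes of the same length with 45% to 50% GC, the class of Runx1 and Maf, the medians were 75.0%, 116% and 70.5%. Runx1 stood at 71.1%, 104% and 64.0% and Maf at 69.7%, 115% and 80.2%, close to these medians.

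The 1049 long transcripts with 50% GC or more, the class of Sall1 and Mef2d, had medians of 109%, 119% and 87.6%. Sall1 lay well below the median of its class in anti-NK1.1 1 and 3, and Mef2d, at 125%, 133.5% and 89.8%, was near it. Among 7097 genes with transcripts under 3000 nt, the class of Spi1, Irf8 and Cebpa, the medians were 117%, 101% and 123%. With per-library offsets for length and GC in edgeR, the log2 changes were -0.76 for Sall1, -0.71 for Mef2a and -0.67 for Mef2c, -0.01 for Runx1 and 0.07 for Maf, 0.24 for Mef2d and 0.19 for Cebpa, and -0.29 for Spi1 and -0.10 for Irf8. The adjusted p-values of these 9 ranged from 0.557 to 0.997.

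**Figure D4:**
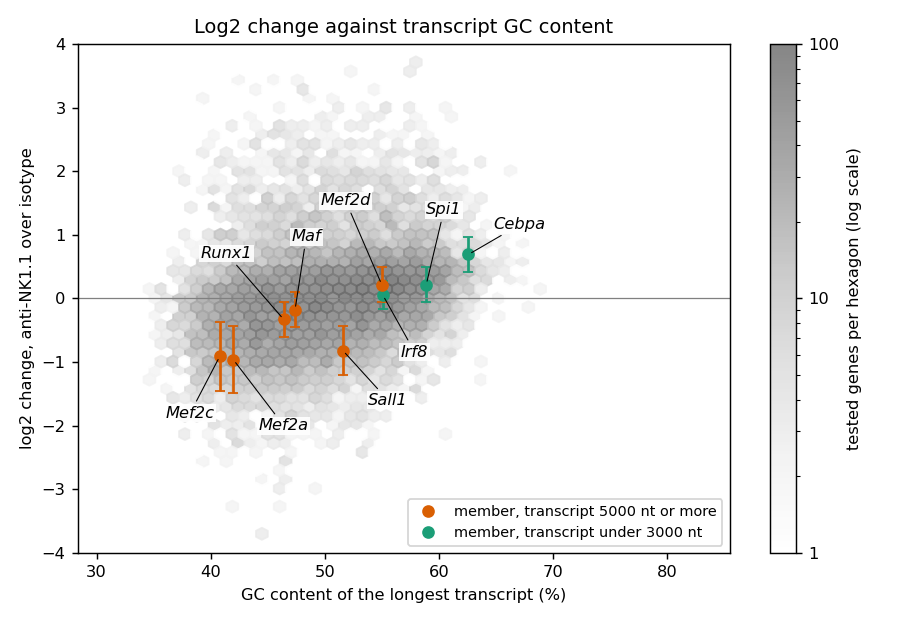
Log2 change of anti-NK1.1 over isotype against GC content of the longest transcript for tested genes (grey, hexagons shaded by number on a log scale, genes beyond the axis not drawn) and the 9 factors (points with SE). The factors run from Mef2c and Mef2a at -0.91 and -0.97, with 40.8% and 42.0% GC, to Cebpa at 0.69 with 62.6% GC, and Sall1 lies at -0.82 with 51.6% GC.

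By level, the order in isotype libraries was Spi1 (431 ± 58.4 TPM), Irf8 (244 ± 53.0), Mef2c (59.1 ± 13.8), Mef2a (50.1 ± 11.99), Sall1 (45.2 ± 12.5), Cebpa (33.6 ± 10.9), Runx1 (19.6 ± 5.60), Maf (15.6 ± 3.62) and Mef2d (12.3 ± 2.70), all as mean ± SD of 3. Spi1 and Irf8 held the first places in all 6 libraries and were separated from the rest and, in every library, from each other. Neighbours from Mef2c to Cebpa, and from Runx1 to Mef2d, differed in mean by less than the larger of their SDs. Within libraries, Mef2c, Mef2a, Sall1 and Cebpa kept that order in all 3 isotype libraries, while Runx1 and Maf changed places in isotype 2. In the anti-NK1.1 group Cebpa, at 49.3 ± 4.14 TPM, came next after Irf8, ahead of Mef2c at 33.3 ± 37.5 TPM, and in library anti-NK1.1 2 the order began Spi1, Irf8, Mef2c and Mef2a as in isotype libraries.

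The patterns across the 6 libraries were compared by the root mean square difference of log2 CPM after each gene's mean was removed. Mef2a and Mef2c were the closest pair of members (0.22), followed by Runx1 and Maf (0.24) and by Spi1 and Irf8 (0.26), while Cebpa was farthest from Mef2a and Mef2c (1.34 each). Among 8293 other genes with a mean of at least 10 CPM, the nearest to Spi1 was Cebpd (0.035), which encodes C/EBPδ, followed by Coro1a (0.056), an actin-binding coronin of leukocytes. Cebpd had 268, 178 and 364 CPM in anti-NK1.1 libraries, against 233.5, 241 and 250 CPM in isotype libraries. The nearest to Sall1 was Pik3ap1 (0.055), an adaptor of phosphoinositide 3-kinase, followed by Fam91a1 (0.095). Pik3ap1 had 35.2, 73.8 and 25.1 CPM in anti-NK1.1 libraries, against 71.6, 69.4 and 89.5 CPM in isotype libraries.

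Slmap (0.098) and Cltc (0.136), the clathrin heavy chain, were nearest to Mef2a, and Zfp35 (0.061) and Srp72 (0.104), a subunit of the signal recognition particle, to Mef2c. Nearest to Mef2d were Ythdc1 (0.093) and Ppp1r12a (0.098), to Runx1 Samd8 (0.061) and Rnf103 (0.072), and to Maf Calu (0.075) and Tmem30a (0.086). Nearest to Cebpa were Prelid2 (0.100) and Pnpla2 (0.107), a triglyceride lipase, and to Irf8 an uncharacterised transcript and Foxj2 (0.050). These likenesses rest on 6 libraries that share the length and GC trends given above.

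Paralogs of the members showed no common direction. Of 26 relatives, 21 were tested, with 12 above 0 and 9 below and a median log2 change of 0.11. None passed the edgeR threshold, and 1, lower, had an unadjusted p under 0.05 (3.80% of tested genes did in this direction). In 3 of the 21, anti-NK1.1 1 and 3 both lay below every isotype library, against 20.3% of tested genes. Irf1, an activator of interferon-inducible genes, averaged 80.0 ± 5.998 CPM under anti-NK1.1 and 117 ± 18.1 CPM in isotype libraries (SD, n = 3 each) without overlap, a log2 change of -0.54 ± 0.22 (edgeR adjusted p = 0.740). All 3 anti-NK1.1 libraries were below all 3 isotype libraries for it, as for 7.59% of tested genes in this direction. Cebpb, an inducible relative of Cebpa, had 1206, 752 and 2859 CPM in anti-NK1.1 libraries, against 782, 888 and 951 CPM in isotype libraries, with a log2 change of 0.88 ± 0.42 and only anti-NK1.1 1 and 3 above the isotype range. Irf4, a lymphoid and dendritic cell factor, had a log2 change of -1.47 ± 0.74 without overlap, at 8.15 CPM or less in every library.

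Cofactors and upstream signals lay more often below 0, in 17 of 25 genes, with a median of -0.29. None passed the edgeR threshold, and 3, all lower, had an unadjusted p under 0.05 (3.80% of tested genes did in this direction). In 8 of the 25, anti-NK1.1 1 and 3 both lay below every isotype library, against 20.3% of tested genes. Mapk14, the p38 kinase that phosphorylates MEF2 proteins, averaged 121 ± 10.6 CPM under anti-NK1.1 and 182.5 ± 28.7 CPM in isotype libraries, with no overlap and a log2 change of -0.60 ± 0.22 (edgeR adjusted p = 0.727). Ncor1, a corepressor, had -0.75 ± 0.30, and Smad3, a mediator of TGF-beta signals, had -1.30 ± 0.56, with 14.1, 14.4 and 4.82 CPM in anti-NK1.1 libraries, against 12.6, 27.6 and 41.8 CPM in isotype libraries. For Smad3 the groups overlapped at isotype 1. Tgfbr1, the type I TGF-beta receptor, had 158, 480 and 160 CPM in anti-NK1.1 libraries, against 403, 467 and 699 CPM in isotype libraries. As for Sall1, its anti-NK1.1 libraries 1 and 3 were below every isotype library and 2 was within the isotype range. Its transcript measured 5756 nt with 41.0% GC. Tgfbr2 had the same pattern, with a log2 change of -0.42 ± 0.34. Tgfb1 (0.22 ± 0.23), Smad2 (-0.14 ± 0.30) and Smad4 (-0.002 ± 0.32), of the same list, did not. Cbfb, the partner subunit of RUNX1, had -0.30 ± 0.26.

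Other myeloid transcription factors were mostly below 0, in 37 of 45 genes, with a median log2 change of -0.40. None passed the edgeR threshold and 1, lower, had an unadjusted p under 0.05 (3.80% of tested genes did in this direction). In 18 of the 45, anti-NK1.1 1 and 3 both lay below every isotype library, against 20.3% of tested genes. Bach1, a repressor of heme and antioxidant genes, had -1.30 ± 0.52, the ETS factor Elf1 had -1.11 ± 0.51 and the ETS factor Fli1 -0.54 ± 0.27, and each had anti-NK1.1 2 within the isotype range. Elf1 showed it most plainly, with 13.1, 58.7 and 18.5 CPM in anti-NK1.1 libraries, against 72.6, 64.8 and 57.1 CPM in isotype libraries.

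Among factors that set the identity of macrophages elsewhere, some were scarce. Gata6, of peritoneal macrophages, and Gata4 had at most 0.09 CPM in any library, and Spic, of splenic red pulp macrophages, at most 1.66 CPM. Of the 8 genes 5 were tested, 4 above 0 and 1 below. Id3, an inhibitor of helix-loop-helix factors that Kupffer cells use, had 169, 89.2 and 123 CPM in anti-NK1.1 libraries, against 75.3, 74.4 and 36.8 CPM in isotype libraries. Its groups did not overlap (log2 change 1.03 ± 0.34, edgeR adjusted p = 0.727). Its relative Id1 also did not overlap (0.94 ± 0.43), as for 7.73% of tested genes in this direction. Nr1h3, the liver X receptor alpha, had 1.01 ± 0.64 with overlap. Endothelial and pericyte markers, cells in which Id1 and Id3 are also active, summed to 125, 78.9 and 37.3 CPM in anti-NK1.1 libraries, against 33.5, 47.3 and 66.5 CPM in isotype libraries, and their part in the result was not tested.

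Microglial genes that these factors bind or maintain were evenly divided in direction, 12 of 24 above 0 and 12 below. Their median was 0.03, and none was past the edgeR threshold. Of them 4, all lower, had an unadjusted p under 0.05 (3.80% of tested genes). Groups did not overlap for 3 genes lower and 4 higher, against 7.59% and 7.73% of tested genes. In 10 of the 24, anti-NK1.1 1 and 3 both lay below every isotype library, against 20.3% of tested genes. Itgam, the CD11b integrin chain that PU.1 activates, averaged 177 ± 103 CPM under anti-NK1.1 and 379.5 ± 108 CPM in isotype libraries. Its log2 change was -1.10 ± 0.39 (edgeR adjusted p = 0.727). Csf3r, a cytokine receptor gene that neutrophils express strongly, had -0.52 ± 0.21, and the purinergic receptor gene P2ry12 had -0.58 ± 0.23. All 3 had groups that did not overlap. In the other direction Ctss, Sparc, Olfml3 and Ms4a6d, chosen after their values were seen, had groups that did not overlap, with log2 changes of 0.39 ± 0.17, 0.20 ± 0.18, 0.33 ± 0.19 and 0.36 ± 0.22. Csf1r, the growth factor receptor on which microglia depend and a PU.1 target, had 3137, 5258 and 2244 CPM in anti-NK1.1 libraries, against 3579, 4402 and 5959 CPM in isotype libraries.

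**Figure D5:**
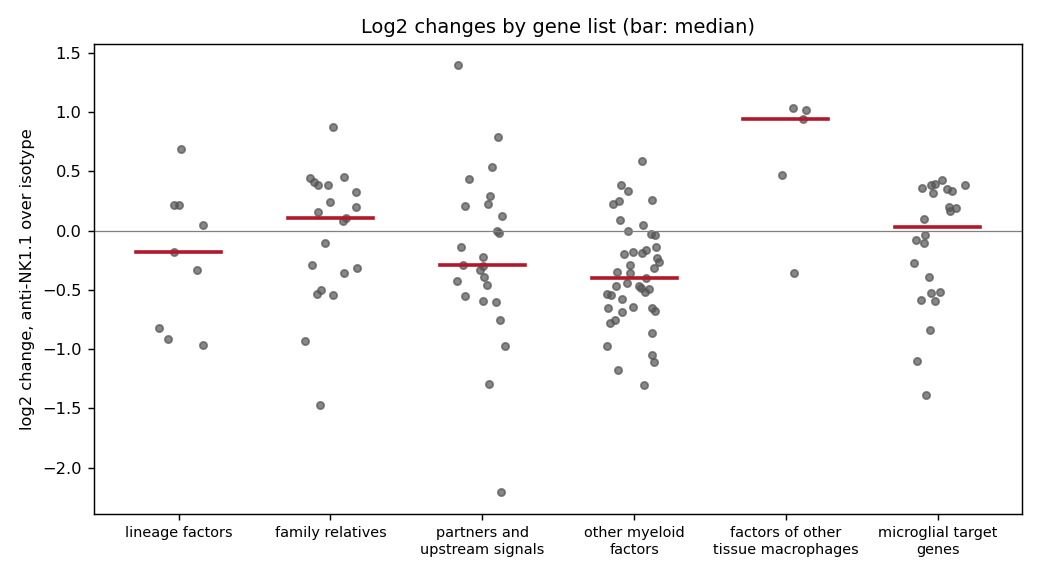
Log2 changes of anti-NK1.1 over isotype for the tested genes of 6 lists (points, 1 per gene, spread sideways for legibility), with the list's median as a bar. Medians are -0.18 for the 9 lineage factors, 0.11 for their relatives, -0.29 for partners and upstream signals, -0.40 for other myeloid factors, 0.94 for factors of other tissue macrophages and 0.03 for microglial target genes.

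Markers of other cells also varied between libraries, and some differed between the groups. The neuron, oligodendrocyte and border macrophage sums were each higher in all 3 anti-NK1.1 libraries than in any isotype library. Markers that DESeq2 called included Mbp (DESeq2 adjusted p = 1.6e-07), Meg3 (0.0016), Slc17a7 (0.012) and Mgl2 (0.020) as higher. It also called Fn1 (4.7e-06) and Ccr2 (0.025) as lower, and edgeR called none of these. Neuron markers, of interest because neurons express Mef2a, Mef2c and Mef2d, summed to 619, 215 and 355 CPM in anti-NK1.1 libraries, against 94.0, 49.0 and 165 CPM in isotype libraries. The sum was highest in anti-NK1.1 1. Meg3, the largest part of it, had 471, 144 and 253 CPM in anti-NK1.1 1 to 3, against 59.9, 28.3 and 100 CPM in isotype 1 to 3. Oligodendrocyte markers summed to 663 to 802 CPM under anti-NK1.1 and 215 to 311 CPM under isotype antibody. Astrocyte markers summed to 147 to 265 CPM under anti-NK1.1 and 142 to 197 CPM under isotype antibody, and B cell markers to 89.2 to 127 CPM in anti-NK1.1 and 51.7 to 94.3 CPM in isotype libraries. The 12 NK and T cell markers summed to 66.3 to 104 CPM in anti-NK1.1 and 94.9 to 142 CPM in isotype libraries, but did not share a direction. Klrb1c, which encodes NK1.1, had 0, 0 and 0.518 CPM in anti-NK1.1 libraries 1 to 3, against 1.40, 1.40 and 2.09 CPM in isotype libraries. With Gzma and Klrd1 it was below every isotype library in all 3 anti-NK1.1 libraries, as were 7.59% of tested genes. Ncr1 was at 0 in all 3 and in isotype 3. The T cell genes Cd3e, Cd3d, Cd3g and Cd8b1, all at low levels, were each above every isotype library in all 3. This held for 7.73% of tested genes. Cd3e had 8.99, 6.02 and 10.1 CPM in anti-NK1.1 libraries, against 0.670, 2.54 and 4.31 CPM in isotype libraries. The part of these cells in the members' values was not tested.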

How the data were processed

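Sorted microglia from 3 anti-NK1.1 and 3 isotype libraries were measured by RNA sequencing. Per the labels' protocols, cDNA came from the SMART-seq v4 kit and libraries from Nextera XT, sequenced as 75 bp single-end reads; these kits do not mark strand and add no molecular identifiers. The deposited table is named as normalized, but its values are whole numbers with different totals per library, and they were taken as read counts per gene. The p-values of the count tests rest on that reading. Per the submitters' processing notes, STAR 2.5.3a, Cufflinks 2.0 and DESeq2 1.1 were used with mm10; no source used here gives the counting program, annotation or strand setting. Of the rows, 26 with a calendar date for a symbol and 2 of totals were left out (53.3% to 57.4% of reads fell in no feature and 0.293% to 0.366% were ambiguous), leaving 24956 genes.

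Counts were filtered with filterByExpr (14520 genes kept), scaled by TMM and compared with edgeR 4.0.16 in R 4.3.3, by its quasi-likelihood test (two-sided) in a design holding the antibody alone. P-values were adjusted over every tested gene after Benjamini and Hochberg, and 0.05 was the threshold. The SE of a log2 change is its size divided by the square root of F. Length, GC content and coordinates came from the longest transcript in the GENCODE basic annotation (GRCm38, or mm10), which matched by symbol 98.0% of genes. Length and GC classes were set after the data were seen. The length and GC correction took loess curves (span 0.3) per library as offsets. Exons of Lysmd4 overlap Mef2a, and exons of 1700113A16Rik overlap Mef2d, on the opposite strand; at most 264 and 369 counts went to them, and such reads cannot be told apart without strand.

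The biological coefficient of variation was 0.640. On counts simulated for this comparison (14089 genes), the test recovered 3% of simulated log2 changes of size 1, 36.8% of size 2 and 69.2% of size 4, with 14 false calls over 3 runs. Alternatives were DESeq2 1.42.0, limma 3.58.1 with quantile normalization, other scalings and filters, the replicate block, the length and GC correction, and libraries left out. Genes are named by rule: all members, the 3 of smallest p in each list, and the 2 nearest in pattern to each member; others were chosen after their values were seen. Members and lists were chosen with earlier results of these data known.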

Additional observations from a re-analysis of the deposited data

How the results depend on the processing

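No member passed over all genes in any fit with all 6 libraries (edgeR, its other scalings and filters, DESeq2 and limma). Leaving out 1 library at a time gave 0 to 2 called members and 0 to 129 called genes, the highest without anti-NK1.1 2 (12 higher, 117 lower), where Mef2a and Mef2c were called. With DESeq2 83 genes were called (48 higher, 35 lower; edgeR 0, with 950 at an unadjusted p under 0.05), and without anti-NK1.1 2 but with the length and GC offsets 2 genes. The median log2 change of the members ranged from -0.42 to -0.09 with 1 library left out, was 0.066 without anti-NK1.1 1 and 3, and was 0.028 without anti-NK1.1 2 with the offsets. The cause of these shifts was not tested.

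Signs turned in 5 settings and with single libraries left out. Without anti-NK1.1 1 and 3 the log2 changes were 0.066 for Mef2a, 0.156 for Mef2c, 0.055 for Runx1, 0.21 for Maf, -0.42 for Spi1 and -0.28 for Irf8. With the length and GC offsets they were -0.29 for Spi1, -0.098 for Irf8 and 0.066 for Maf, and with the replicate block added -0.309 for Spi1, -0.123 for Irf8 and 0.067 for Maf. With the offsets and without anti-NK1.1 2 they were -0.13 for Spi1, 0.088 for Maf and 0.028 for Runx1, and with quantile normalization -0.018 for Irf8. With 1 library left out, Irf8 ranged from -0.099 to 0.191 and Spi1 from -0.077 to 0.454. The other members kept their sign, with Mef2a from -2.02 to -0.59, Mef2c from -2.05 to -0.54, Sall1 from -1.42 to -0.51, Runx1 from -0.57 to -0.17, Maf from -0.42 to -0.03, Mef2d from 0.10 to 0.37 and Cebpa from 0.52 to 0.81. The fit without anti-NK1.1 1 and 3 assumes that the lone anti-NK1.1 library varies like the isotype libraries.

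Same-numbered libraries did not deviate together (correlations of 0.053, 0.03 and -0.004 for numbers 1 to 3), and not every library correlated best with its own number. Such correlations, of deviations from means of 3 libraries, cannot decide whether the numbers pair the samples. The labels do not say whether they do. The replicate block called 0 genes and 0 members. At an unadjusted edgeR p under 0.05 it had 1006 of 14520 tested genes and 4 of the 9 members. The main fit had 1 such member among 950 such genes, and limma with quantile normalization had 4 among 1369, each of 14520 tested. With the block the median member log2 change was -0.20, with -1.36 for Mef2a and -1.35 for Mef2c. With 3 libraries a group and this spread, few changes of 1 on the log2 scale could be called.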
